A study of Mus musculus with 21 samples.

Results

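The hearts described here are 5 left ventricles from mice that underwent transverse aortic constriction (TAC, a surgical narrowing of the aorta that makes the left ventricle pump against a high pressure), received a phosphodiesterase inhibitor and nevertheless carried little beta myosin heavy chain (Myh7) mRNA. They were selected on a measured value: of the 11 inhibitor-treated TAC libraries, those with Myh7 under 2000 TMM-scaled CPM (counts relative to library size, scaled between libraries by the trimmed mean of M values) were taken. They are 5 of the 21 libraries of the series and were compared with the 5 sham libraries. All mice were C57BL/6J, each library came from its own ear-tagged mouse, and total RNA of left ventricular myocardium was sequenced. Of the 5 chosen mice, 2 had received the PDE5A inhibitor sildenafil (PDE5A inhibitor libraries 1 and 2) and 3 the PDE9A inhibitor PF-04449613 (PDE9A inhibitor libraries 2, 5 and 6). Treatment ran for 4 weeks and began 1 week after surgery. The other 6 treated TAC mice and 5 TAC mice without a drug are used below only to place the values. Sham mice had the sham operation and no drug. Doses, any vehicle, age and sex are not stated in the labels. The question is how treated ventricles with Myh7 under 2000 CPM after TAC differed from sham.

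The adult mouse ventricle contracts mainly with alpha myosin heavy chain (Myh6), a fast motor. Under pressure overload cardiomyocytes switch part of their myosin to the slow beta isoform and re-express other genes of the fetal heart, among them the natriuretic peptides, and fibroblasts lay down matrix. Secreted and membrane proteins, matrix included, are folded in the endoplasmic reticulum by chaperones whose genes are switched on when unfolded protein accumulates there. PDE5A and PDE9A break down cyclic GMP, the second messenger through which natriuretic peptides and nitric oxide act, so their inhibitors raise it.

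Myh7 (ENSMUSG00000053093.16, GRCm38 chromosome 14, 54970684 to 54994626, minus strand) had 380, 420, 1747, 592 and 432 CPM in the chosen libraries, given here and below in the order PDE5A inhibitor 1 and 2, PDE9A inhibitor 2, 5 and 6. The sham libraries 1 to 5 had 199, 326, 257, 198 and 240 CPM. The nearest library outside the threshold was PDE9A inhibitor library 1 with 2955 CPM, and the nearest inside was PDE9A inhibitor library 2 with 1747 CPM. Every chosen library therefore still lay above every sham library, and the chosen mean was 2.93 times the sham mean. The 6 other treated libraries ranged from 2955 to 9100 CPM and the untreated TAC libraries from 2783 to 8670 CPM. Myh7 made up 1.84 ± 1.54% of the summed Myh6 and Myh7 CPM in the chosen libraries, 15.5 ± 6.64% in the other treated libraries, 18.7 ± 10.6% in untreated TAC and 0.541 ± 0.137% in sham (SD, n = 5, 6, 5 and 5). Since Myh7 chose the libraries, these values are a description and carry no test.

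**Figure D1:**
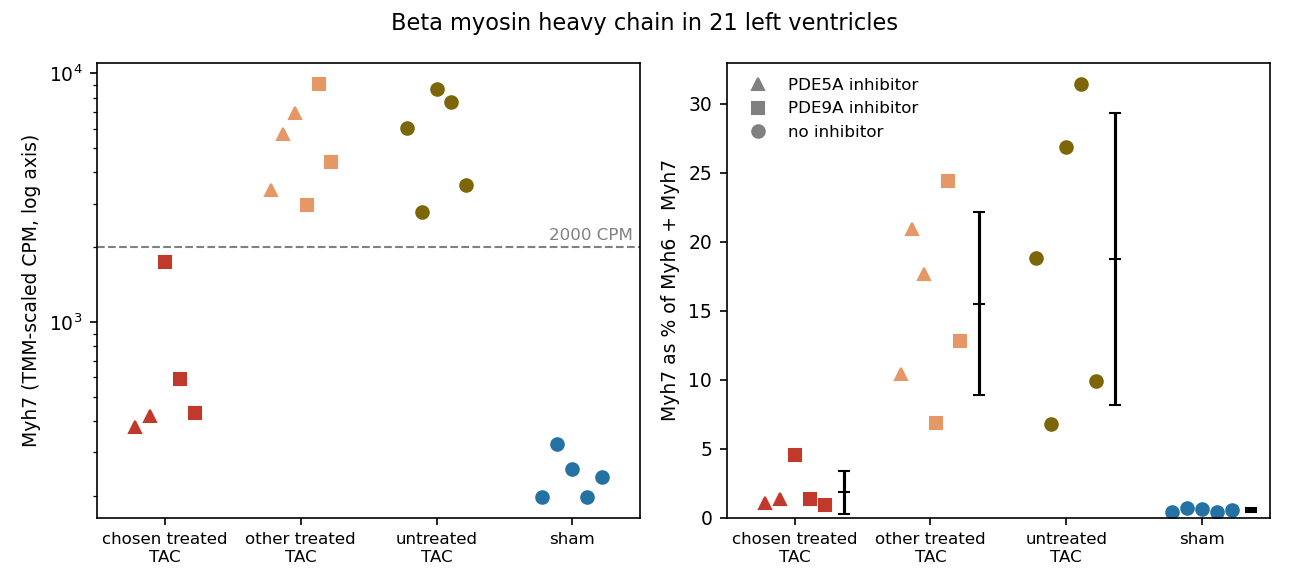
Left, Myh7 in each of the 21 libraries (TMM-scaled CPM, log axis, dashed line at the 2000 CPM threshold); right, Myh7 as a percentage of summed Myh6 and Myh7 CPM, with the mean and SD of each group beside its points. Triangles are PDE5A inhibitor libraries, squares PDE9A inhibitor libraries and circles libraries without a drug; 4 of the 5 chosen libraries have 380 to 592 CPM, PDE9A inhibitor library 2 has 1747 CPM, and the highest sham library has 326 CPM.

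Total counts were 25.7 to 36.5 M in the chosen and 25.9 to 41.0 M in the sham libraries, and ribosomal Rn45s took 0.230 to 0.271% and 0.192 to 0.268% of them. On the first principal component of the 2000 most variable genes (45.5% of their variance), the chosen libraries scored 3.55, -9.58, -5.39, -18.0 and -31.3. The sham libraries scored -38.9 to -24.3, so PDE9A inhibitor library 6 lay within the sham range and the other chosen libraries outside it. Ear tags of 4 chosen mice began with 5 and that of PDE9A inhibitor library 6 with 6, whereas tags of 3 sham mice began with 1 and of 2 with 6. The labels do not call the tag series a batch, and no sham mouse had a tag beginning with 5. Of the libraries outside both groups, PDE9A inhibitor libraries 3 and 4 and TAC library 3 did, so that a fit over all libraries can hold a term for the series. In bulk tissue, fewer cells of a type and less RNA per cell cannot be told apart either.

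Of 14135 genes tested, 9 rose and 8 fell in the chosen libraries against sham at an adjusted p under 0.05 (edgeR quasi-likelihood test, Benjamini-Hochberg over all genes), which is 0.0637% and 0.0566% of the genes tested. The 9 that rose were Nox4, Itih2, Itgbl1, Ptprn, Ypel2, Atp8a2, Ecm2, Ivns1abp and Setd7, and the 8 that fell were Ccl6, Ano10, Manf, Hspa5, Hsp90b1, Tmem246, Chordc1 and Wbp1. The unadjusted p was under 0.05 for 1651 genes (11.7%), 770 higher (5.45%) and 881 lower (6.23%). The 5 chosen libraries all lay above the 5 sham libraries in 217 genes (1.54%) and all below them in 261 (1.85%), and 15 of the 17 called genes were among these. The p-values compare these chosen libraries with sham and not a treatment with sham, because the libraries were picked by a gene of their own.

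The number called moved with single libraries and with the method. With PDE5A inhibitor library 1 or 2, PDE9A inhibitor library 2 or 5, or sham library 2 or 3 left out, only Ano10 was called. Without sham library 1 or 5, 3 genes were called, without sham library 4, 8, and without PDE9A inhibitor library 6, 35. DESeq2 called 160 genes (1.13%), 79 higher (0.559%) and 81 lower (0.573%), all 17 among them. Limma-voom called 1 (0.00707%) and edgeR with a term for the ear tag series 0 (676 at an unadjusted p under 0.05).

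The comparison that the labels define, all 11 inhibitor-treated TAC libraries against sham, contains the 5 chosen libraries and called 2392 genes (16.9% of those tested), 1112 higher (7.87%) and 1280 lower (9.06%). Untreated TAC against sham, which holds none of the chosen libraries, called 3558 genes (25.2%), 1718 higher (12.2%) and 1840 lower (13.0%). All 3 comparisons use the same sham libraries, so their values are set side by side and are not independent. Each of the 17 genes was also called in both. For 14 of the 17 the log2 fold change was smaller in size in the chosen libraries than in untreated TAC, the exceptions being Hsp90b1, Manf and Ivns1abp. The same held for 10778 of all 14135 genes tested, so it is not particular to the called genes. The chosen libraries were selected for low Myh7 and the untreated TAC libraries were not, so the sizes stand side by side without a test. In the comparison of all 11 treated libraries, 16 of the 17 genes kept their call under every one of 23 alternative settings, and Ivns1abp lost it with a term for the ear tag series (adjusted p = 0.0614).

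**Figure D2:**
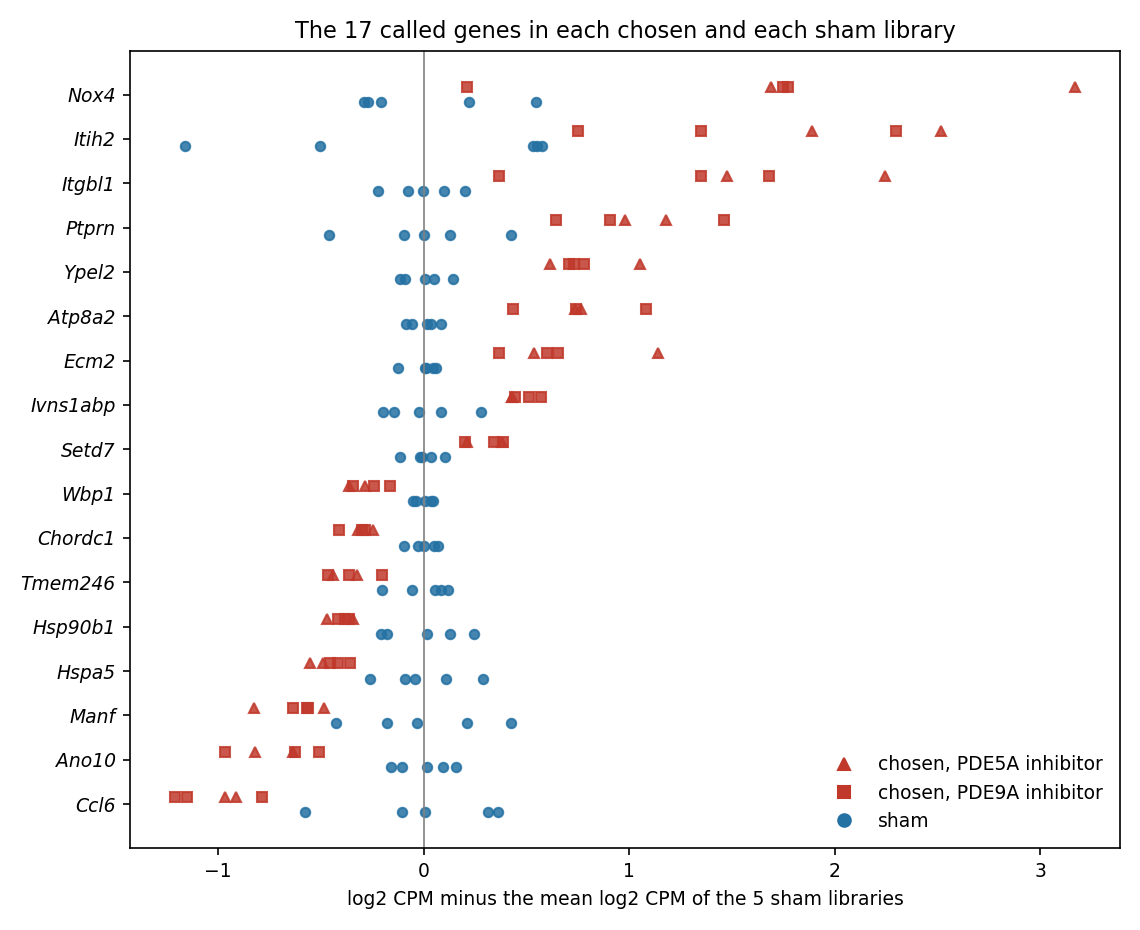
The 17 called genes in the 5 chosen libraries (red, above) and the 5 sham libraries (blue, below), each point the library's log2 CPM minus the mean log2 CPM of the sham libraries. The groups are apart for 15 genes, and PDE9A inhibitor library 6 reaches the sham points for Nox4 and Tmem246.

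Of the 8 genes that fell, Hspa5, Hsp90b1 and Manf belong to the endoplasmic reticulum. Of the 20 tested members of a list of chaperones and stress genes of that compartment, 3 fell (0.0566% of all genes did) and none rose. A negative log2 fold change was found for 17, with a list median of -0.30 against 0.00108 over all genes tested. In 9 of the 20 all chosen libraries lay below all sham libraries, set against 1.85% of all genes. DESeq2 called 9 of the 20, all lower, set against 0.573% of all genes, and limma-voom 0. In the edgeR test 11 had an unadjusted p under 0.05, all lower, set against 6.23% of all genes. The list was chosen with earlier results of these data known, so its count is a description.

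Hspa5 encodes BiP, the Hsp70 chaperone that binds unfolded chains and holds the stress sensors of the endoplasmic reticulum inactive (ENSMUSG00000026864.13, chromosome 2, 34771970 to 34777547). It had 503, 526, 552, 538 and 576 CPM in the chosen libraries, against 716, 796, 691, 615 and 900 CPM in sham libraries 1 to 5. The groups did not overlap, and the chosen libraries differed little among themselves (539 ± 27.3 CPM, against 744 ± 109 CPM in sham; SD, n = 5 each). The log2 fold change was -0.46 (SE 0.09, adjusted p = 0.0461), -0.60 in all treated TAC (adjusted p = 0.00186) and -0.60 in untreated TAC (adjusted p = 0.00266). Hsp90b1 encodes GRP94, the Hsp90 of the same compartment, and had 370, 338, 351, 365 and 360 CPM in the chosen libraries, against 406, 513, 474, 414 and 555 CPM in sham. Its log2 fold change was -0.41 (SE 0.07, adjusted p = 0.0363), with -0.41 in all treated TAC and -0.39 in untreated TAC. Manf, a small secreted stress protein that associates with BiP, had 22.3, 17.6, 21.1, 20.1 and 21.02 CPM in the chosen libraries, against 27.5, 36.15, 30.5, 23.2 and 41.9 CPM in sham. It fell by 0.64 (SE 0.12, adjusted p = 0.0363) on the log2 scale, set beside -0.48 in untreated TAC. For all 3 genes the sham libraries spread widely, with sham library 5 the highest and, for Manf and Hspa5, sham library 4 the lowest. With 1 library left out, all 3 stayed called without sham library 4 or PDE9A inhibitor library 6 and Hsp90b1 alone of them without sham library 1; without any other library of the comparison none of the 3 was called. The log2 fold changes over these fits ran from -0.526 to -0.387 for Hspa5, from -0.456 to -0.341 for Hsp90b1 and from -0.737 to -0.523 for Manf, each smallest in size without sham library 5.

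Among mice whose tags began with 6, PDE9A inhibitor library 6 stood against sham libraries 4 and 5, with 576 CPM of Hspa5 against 615 and 900, 360 CPM of Hsp90b1 against 414 and 555, and 21.02 CPM of Manf against 23.2 and 41.9. It was below both for each gene, which with 1 library cannot be tested. With a term for the ear tag series, the log2 fold changes of Hspa5, Hsp90b1 and Manf were -0.349, -0.355 and -0.679. None was called (adjusted p = 0.894, 0.729 and 0.670). Nor was any of them called in a fit of only the chosen and sham libraries.

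Folding enzymes and lectin chaperones that did not pass the test lay on the same side. Calr (calreticulin), Canx (calnexin), the disulfide isomerases Pdia3, Pdia4 and Pdia6, and Hyou1, an Hsp70-like chaperone, did not overlap between the groups, and their log2 fold changes ran from -0.45 (Pdia4, SE 0.12, adjusted p = 0.163) to -0.24 (Canx, SE 0.07, adjusted p = 0.173). Calr, for example, had 227, 233, 228, 206 and 216 CPM in the chosen libraries, against 248.9, 309, 271, 245 and 310 CPM in sham. Atf6 had a log2 fold change of 0.01 (SE 0.06), Atf4 0.06 (SE 0.12), Ddit3, the pro-apoptotic factor CHOP, 0.22 (SE 0.11) and Xbp1 -0.28 (SE 0.08, adjusted p = 0.210), all with overlapping groups. The list's mean log2 level was -0.29 to -0.20 relative to the sham mean in the chosen libraries, -0.351 to -0.145 in the other treated libraries, -0.28 to -0.13 in untreated TAC and -0.13 to 0.17 in sham. Its median log2 fold change was larger in size in the chosen libraries (-0.30) than in untreated TAC (-0.19), where 8 of the 20 fell (13.0% of all genes did). The comparison of all treated libraries called 12 lower and 1 higher, set against 9.06% and 7.87% of all genes. The difference between the chosen and the untreated TAC libraries was not tested.

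**Figure D3:**
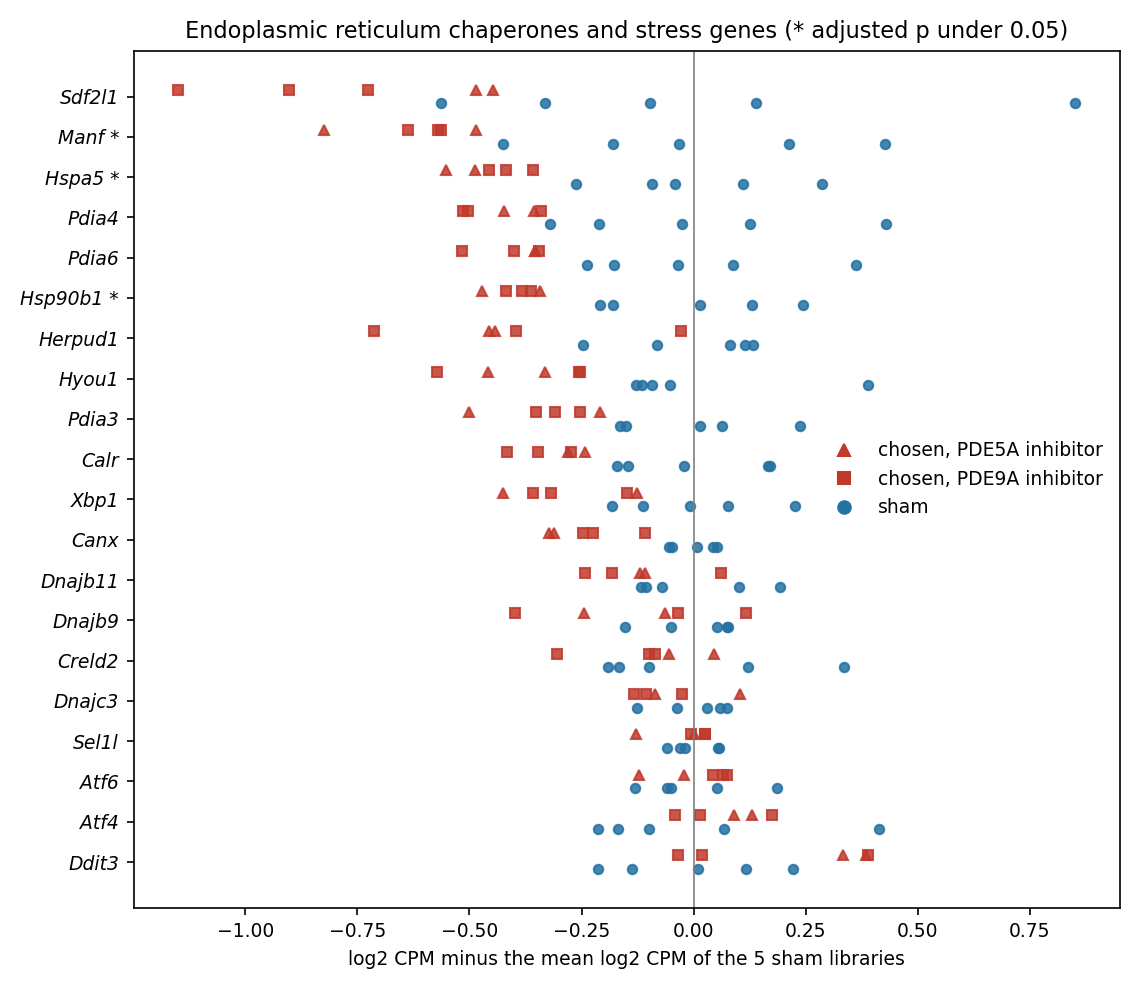
The 20 endoplasmic reticulum chaperone and stress genes in the 5 chosen libraries (red, above) and the 5 sham libraries (blue, below) as log2 CPM minus the sham mean, ordered by fitted log2 fold change, with asterisks on the 3 called genes. The chosen libraries lie left of all sham libraries for Manf, Hspa5, Pdia4, Pdia6, Hsp90b1, Hyou1, Pdia3, Calr and Canx, and overlap them for Atf6, Atf4 and Ddit3.

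Promoters of these genes are shown because a shared sequence element, the endoplasmic reticulum stress element to which ATF6 binds together with NF-Y, is known from several of them. RefSeq windows of 250 bases before to 50 after the gene start (GRCm38.p6) were matched for 17 of the 20 list members and searched on both strands for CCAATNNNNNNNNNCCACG. Capitals mark the match.
Hspa5 (chr2:34771840-34772139, plus strand): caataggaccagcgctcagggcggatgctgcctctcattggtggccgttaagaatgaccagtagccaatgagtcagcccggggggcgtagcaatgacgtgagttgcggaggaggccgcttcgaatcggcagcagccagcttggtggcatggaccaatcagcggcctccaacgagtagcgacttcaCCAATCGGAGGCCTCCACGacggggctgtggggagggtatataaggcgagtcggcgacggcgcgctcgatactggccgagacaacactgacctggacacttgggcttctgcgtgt
Hsp90b1 (chr10:86705395-86705694, minus strand): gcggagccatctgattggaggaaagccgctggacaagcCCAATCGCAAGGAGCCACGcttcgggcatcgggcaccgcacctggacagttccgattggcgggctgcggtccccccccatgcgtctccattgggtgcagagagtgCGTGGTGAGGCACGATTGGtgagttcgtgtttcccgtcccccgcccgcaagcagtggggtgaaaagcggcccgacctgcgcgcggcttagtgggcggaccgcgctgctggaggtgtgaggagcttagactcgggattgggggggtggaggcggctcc
Calr (chr8:84846882-84847181, minus strand): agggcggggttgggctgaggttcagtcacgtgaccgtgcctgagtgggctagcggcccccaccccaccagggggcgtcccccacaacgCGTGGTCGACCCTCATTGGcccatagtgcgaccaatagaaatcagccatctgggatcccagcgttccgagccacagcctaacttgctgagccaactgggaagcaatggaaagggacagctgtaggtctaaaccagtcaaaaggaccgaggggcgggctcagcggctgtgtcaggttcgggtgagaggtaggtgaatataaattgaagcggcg
Dnajc3 (chr14:118937682-118937981, plus strand): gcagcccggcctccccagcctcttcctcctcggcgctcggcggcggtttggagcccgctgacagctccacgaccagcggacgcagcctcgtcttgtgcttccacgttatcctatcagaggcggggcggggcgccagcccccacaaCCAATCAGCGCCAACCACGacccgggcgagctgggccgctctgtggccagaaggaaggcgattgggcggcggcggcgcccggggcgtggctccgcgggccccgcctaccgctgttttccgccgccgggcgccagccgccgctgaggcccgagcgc

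Hspa5 carried the element with its first base at -65 from the RefSeq start of its window. The coordinates of Hspa5 given above begin upstream of this RefSeq start. Hsp90b1 carried the element at -212 and, in the opposite orientation, at -107. In all, 7 of the 17 windows of the list held it (41.2%): those of Calr, Canx, Creld2, Dnajc3, Hsp90b1, Hspa5 and Pdia6. Among all 32851 windows the share was 0.119%, and among the 10499 tested genes with a window 0.162%. Of these 7 genes, Hspa5, Hsp90b1, Calr, Canx and Pdia6 had chosen libraries below all sham libraries, whereas Dnajc3 (89.5, 78.5, 75.9, 81.8 and 77.5 CPM in the chosen libraries, against 81.2, 87.7, 85.1, 76.3 and 86.8 CPM in sham) and Creld2 overlapped. Of the 14 called genes with a window, 2 held the element, the same Hspa5 and Hsp90b1. The called Manf, Atp8a2 and Tmem246 had no matched window and were not searched. Nor were Atf6 and Hyou1 of the list. A match describes the letters of the window and is not evidence of binding.

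Chordc1, a cochaperone of cytosolic Hsp90, also fell. It had 42.3, 40.2, 37.8, 41.2 and 40.8 CPM in the chosen libraries, against 47.0, 50.2, 52.7, 49.3 and 52.1 CPM in sham (log2 fold change -0.31, SE 0.06, adjusted p = 0.0363). None of the 20 tested members of a list of cytosolic heat shock and protein turnover genes was called by edgeR or limma-voom. An unadjusted p under 0.05 was found for 7 (11.7% of all genes) and DESeq2 called 1 (1.13% of all genes). The list's median log2 fold change was 0.03.

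The 9 genes that rose included an oxidase and several secreted proteins. Nox4, the NADPH oxidase that releases hydrogen peroxide, had 22.4, 8.05, 8.51, 8.36 and 2.89 CPM in the chosen libraries, against 2.04, 2.07, 2.16, 3.64 and 2.90 CPM in sham. PDE5A inhibitor library 1 stood far above the rest and PDE9A inhibitor library 6 lay inside the sham range, so the groups overlapped although the gene was called (log2 fold change 1.97, SE 0.38, adjusted p = 0.0387). Nox4 was the sole called member of the 22 tested NADPH oxidase and antioxidant genes. Of the 22, 2 had an unadjusted p under 0.05, both higher, set against 5.45% of all genes. Itgbl1, a secreted protein with integrin-like repeats, had 64.0, 37.7, 43.3, 34.5 and 17.4 CPM in the chosen libraries, against 11.6, 13.5, 12.8, 15.6 and 14.5 CPM in sham. No chosen library reached the sham range, and the log2 fold change was 1.54 (SE 0.26, adjusted p = 0.0363), set beside 2.75 in untreated TAC. Itih2, a heavy chain of the inter-alpha-trypsin inhibitors, which bind hyaluronan, was scarce, with 2.42, 1.56, 2.08, 1.08 and 0.712 CPM in the chosen libraries against 0.189 to 0.631 CPM in sham. It rose by 1.73 (SE 0.32, adjusted p = 0.0363), and by 3.23 in untreated TAC. Ecm2, an extracellular matrix protein, had 65.4, 43.1, 44.96, 46.7 and 38.3 CPM in the chosen libraries, against 29.9, 29.8, 30.7, 27.2 and 31.0 CPM in sham (log2 fold change 0.68, SE 0.13, adjusted p = 0.0363). For Nox4, Itgbl1, Itih2 and Ecm2 alike, PDE5A inhibitor library 1 was the highest of the chosen libraries and PDE9A inhibitor library 6 the lowest.

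Ano10, an anoctamin of the family of ion channels and lipid scramblases (ENSMUSG00000037949.8, chromosome 9, 122175874 to 122294423), had the lowest p of the comparison. It had 31.2, 27.5, 24.8, 31.45 and 34.0 CPM in the chosen libraries, against 54.0, 51.7, 49.0, 43.4 and 45.03 CPM in sham. The log2 fold change of -0.71 (SE 0.08, adjusted p = 0.000381) stood beside -0.78 in all treated TAC (adjusted p = 6.36e-06) and -0.95 in untreated TAC (adjusted p = 6.47e-06). Its call held in 19 of 20 alternative settings and was lost with a term for the ear tag series (log2 fold change -0.57, adjusted p = 0.131). The other called genes held in 5 to 8 of the 20, and none of the 17 changed sign.

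The remaining called genes have varied roles. Atp8a2, a phospholipid flippase, had 17.1, 16.8, 21.3, 16.8 and 13.6 CPM in the chosen libraries, against 9.49 to 10.7 CPM in sham (log2 fold change 0.77, SE 0.14). Ptprn, a phosphatase-like protein of secretory granule membranes, had 6.73, 5.86, 8.20, 5.57 and 4.65 CPM, against 2.16 to 3.99 CPM in sham (log2 fold change 1.03, SE 0.18). Ypel2 had 34.0 to 46.1 CPM in the chosen libraries and 20.6 to 24.6 CPM in sham (log2 fold change 0.78, SE 0.14). The smallest rises were those of Ivns1abp, a kelch-repeat protein, with 1823 to 2013 CPM against 1181 to 1640 CPM in sham, and of Setd7, a lysine methyltransferase, with 126 to 143 CPM against 102 to 118 CPM in sham. Ccl6, a chemokine of mouse myeloid cells, fell most, with 9.81, 9.46, 10.7, 8.32 and 7.996 CPM against 12.4, 18.6, 22.9, 17.2 and 23.8 CPM in sham (log2 fold change -1.03, SE 0.20, adjusted p = 0.0382). It was the sole member called by edgeR of 25 tested inflammation and chemokine genes (0.0566% of all genes were called lower). Of the 25, 9 had an unadjusted p under 0.05, 8 lower and 1 higher, set against 6.23% and 5.45% of all genes. None of the 10 tested macrophage markers was called by edgeR, DESeq2 or limma-voom, and 1 had an unadjusted p under 0.05 (11.7% of all genes). Their summed levels were 270 to 366 CPM in the chosen and 301 to 385 CPM in the sham libraries. The part of these markers in the Ccl6 result was not tested. Tmem246 and Wbp1, which binds WW domains, fell by 0.36 (SE 0.07) and 0.28 (SE 0.05) on the log2 scale, and Tmem246 overlapped at its edge, where PDE9A inhibitor library 6 reached the level of sham library 5 (44.95 CPM).

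**Figure D4:**
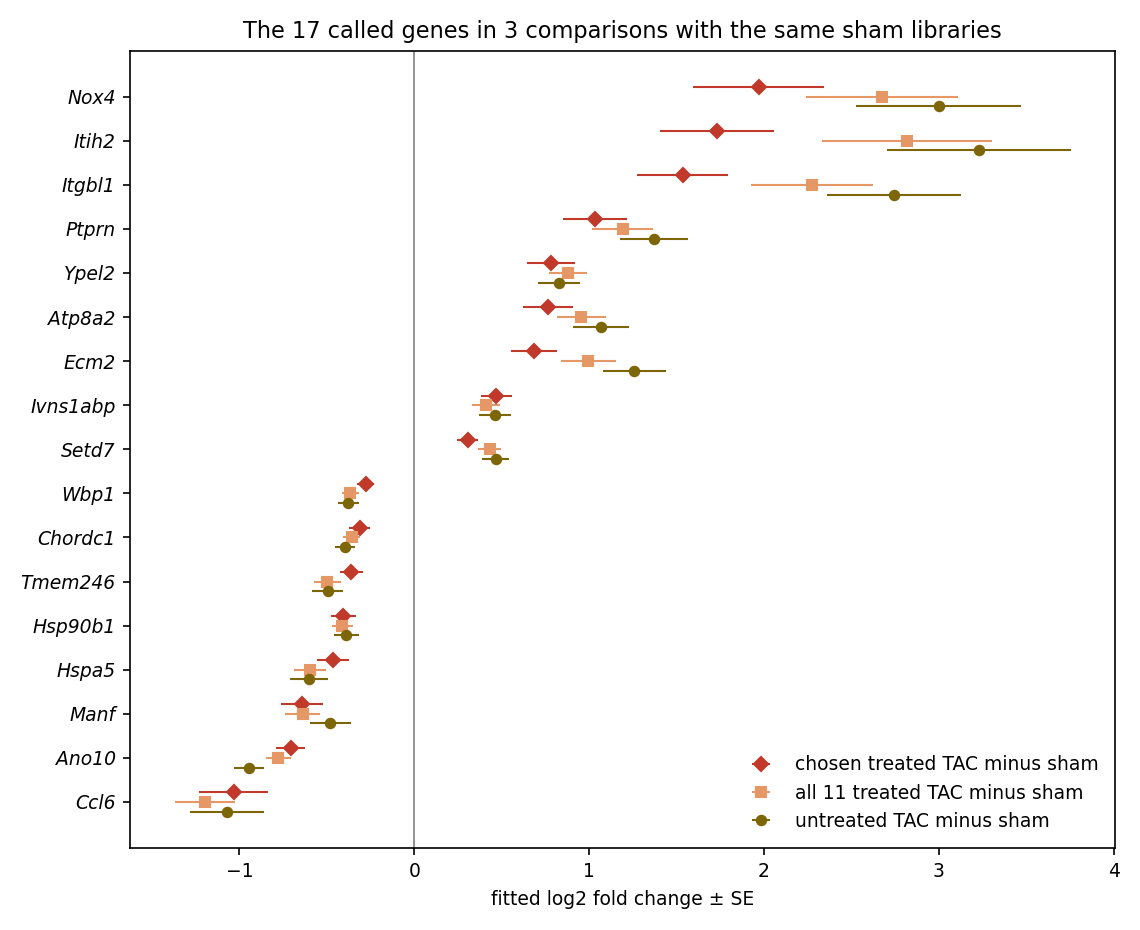
Fitted log2 fold change and SE of the 17 called genes in the chosen libraries (diamonds), in all 11 treated TAC libraries (squares) and in untreated TAC (circles), each minus the same 5 sham libraries. Nox4, Itih2, Itgbl1 and Ecm2 lie closer to 0 in the chosen libraries (0.68 to 1.97) than in untreated TAC (1.26 to 3.23), while Hsp90b1 and Ivns1abp lie almost on top of each other.

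In the list of fetal and stretch genes, which leaves out Myh7, most members had a positive log2 fold change and none passed the test. Of the 14 tested members 13 had a positive log2 fold change (median 0.56). None was called by edgeR or limma-voom. DESeq2 called 3 and 6 had an unadjusted p under 0.05, all higher, set against 0.559% and 5.45% of all genes. In 6 of the 14 all chosen libraries lay above all sham libraries, set against 1.54% of all genes. Acta1, skeletal alpha-actin, had 1431, 2029, 4591, 1365 and 711 CPM in the chosen libraries, against 305, 389, 435, 482 and 260 CPM in sham. Its log2 fold change was 2.44 (SE 0.62, 95% interval 1.13 to 3.74, adjusted p = 0.142), set beside 2.92 in untreated TAC (adjusted p = 0.00512). Ankrd1, a stretch-responsive titin-binding protein, had 3818, 2899, 4387, 1882 and 1686 CPM, against 1018 to 1478 CPM in sham (log2 fold change 1.15, SE 0.25, adjusted p = 0.0916). The gene of B-type natriuretic peptide, Nppb, had 635, 397, 567, 250 and 311 CPM, against 140 to 195 CPM in sham (log2 fold change 1.35, SE 0.39, adjusted p = 0.194). Nppa, atrial natriuretic peptide, had 1004, 544, 718, 268 and 277 CPM, against 59.8 to 299.5 CPM in sham, and overlapped. All 4 passed the test in untreated TAC, where 11 of the 14 rose (12.2% of all genes did). They also passed it in all treated TAC, where 9 of the 14 rose (7.87% of all genes did). Myh6 itself had 35663, 30924, 36482, 42743 and 47896 CPM in the chosen libraries, against 42256 to 48842 CPM in sham (log2 fold change -0.22, 95% interval -0.604 to 0.155), and PDE9A inhibitor libraries 5 and 6 lay inside the sham range.

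PDE9A inhibitor library 2, which had the most Myh7, also had the most Acta1 and Ankrd1. PDE5A inhibitor library 1, which had the least Myh7, had the most Nppa (1004 CPM), Nppb (635 CPM), Postn (457 CPM), Cilp (397 CPM), Ltbp2 (103 CPM) and Col1a1 (211 CPM) of the chosen libraries. With 5 libraries this is a description of single hearts.

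In the extracellular matrix list, which does not hold the called Ecm2, every member had a positive log2 fold change and none was called by edgeR. The median over its 44 tested members was 0.605, against 1.90 in untreated TAC, where 40 rose (12.2% of all genes did). The edgeR test and limma-voom called 0 of the 44. DESeq2 called 6, all higher, and 19 had an unadjusted p under 0.05, all higher, set against 0.559% and 5.45% of all genes. No member had all chosen libraries above all sham libraries, and the chosen libraries differed widely. Of the 44 genes, 42, 31, 36, 23 and 1 lay above every sham library in the chosen libraries in the order above, against 21.8, 21.5, 23.0, 19.6 and 17.8% of all genes. Cilp, a matrix protein of activated fibroblasts, had 397, 161, 217, 110 and 45.2 CPM, against 25.6 to 52.0 CPM in sham (log2 fold change 2.20, SE 0.45, adjusted p = 0.0649). Periostin (Postn) had 457, 254, 370, 202 and 83.3 CPM, against 67.5 to 107 CPM in sham (log2 fold change 1.55, SE 0.57, adjusted p = 0.301), and Ltbp2, which binds to microfibrils, 103, 35.5, 37.5, 34.4 and 10.5 CPM, against 5.33 to 16.4 CPM in sham. Col1a1, the chain of the main fibrillar collagen, had 211, 108, 137, 105 and 77.1 CPM, against 56.4 to 107 CPM in sham (log2 fold change 0.59, 95% interval -0.265 to 1.44). Sfrp2, a secreted Wnt modulator, had 24.4, 9.27, 6.04, 7.53 and 3.98 CPM against 1.71 to 3.69 CPM in sham (log2 fold change 2.05, SE 0.52, adjusted p = 0.142).

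Markers of activated fibroblasts were mostly higher. Their summed level was 319 to 1442 CPM in the chosen and 258 to 368 CPM in the sham libraries. Of the 10 tested, 9 were higher, and Acta2 was lower (log2 fold change -0.523). None was called by edgeR or limma-voom. DESeq2 called 4 and 9 had an unadjusted p under 0.05, all higher, set against 0.559% and 5.45% of all genes. Cilp, Postn and Ltbp2 are themselves among these markers, so the list is not independent of the matrix genes above. The 12 general fibroblast markers were all higher, with a median log2 fold change of 0.36 and summed levels of 3160 to 4973 CPM against 2620 to 3286 CPM in sham. No marker of either list was at 0 in all 10 libraries, and their part in the matrix result was not tested.

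**Figure D5:**
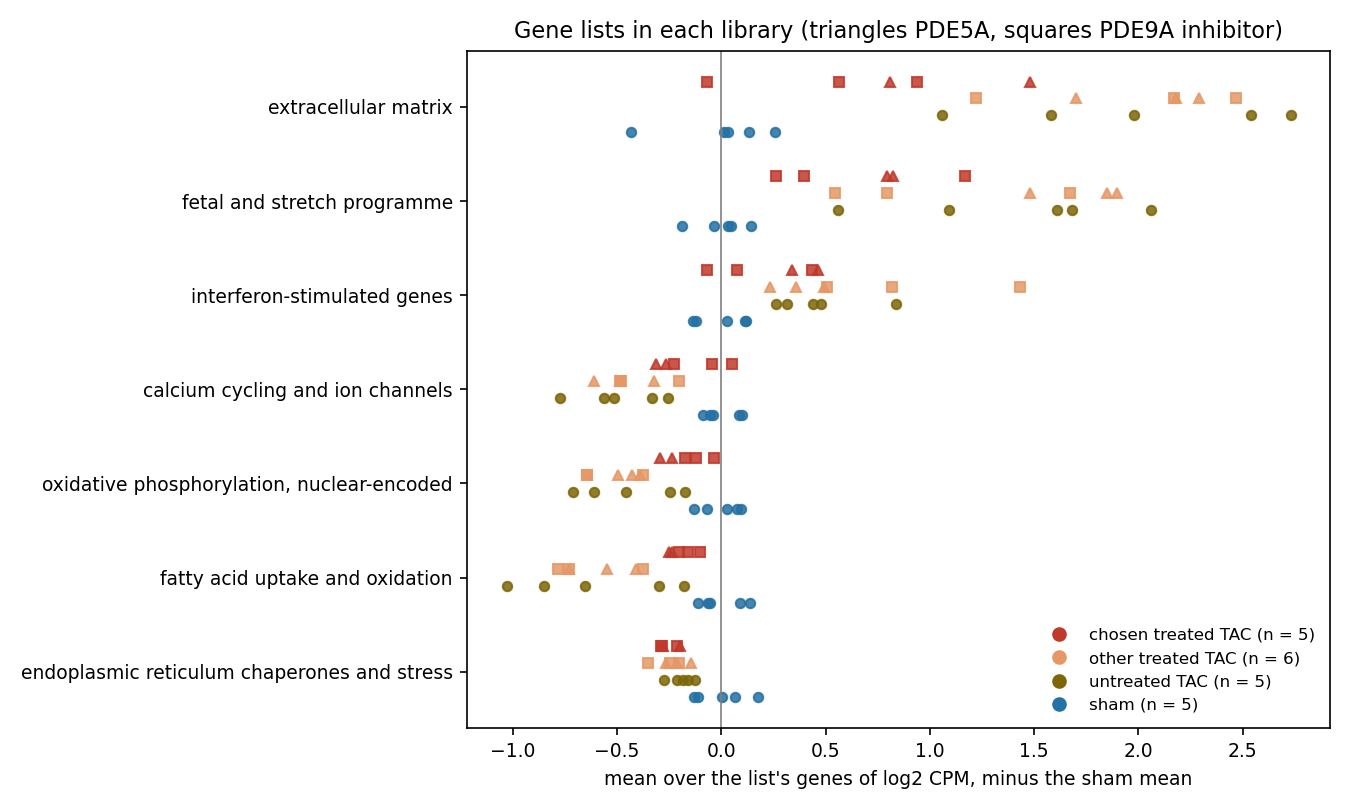
Mean log2 CPM over the genes of 7 lists, minus the sham mean, in each chosen (red), other treated (orange), untreated TAC (brown) and sham (blue) library, with triangles for the PDE5A and squares for the PDE9A inhibitor. The chosen libraries range from -0.07 to 1.48 for the extracellular matrix, with PDE9A inhibitor library 6 inside the sham range, and from -0.29 to -0.20 for endoplasmic reticulum chaperones, below all sham libraries.

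Genes of fatty acid oxidation and of oxidative phosphorylation had negative log2 fold changes and none was called. All 28 tested genes of fatty acid uptake and oxidation and all 33 of oxidative phosphorylation had a negative log2 fold change, with medians of -0.19 and -0.16, against -0.56 and -0.42 in untreated TAC, where 23 and 31 fell (13.0% of all genes did). None of either list was called by edgeR, DESeq2 or limma-voom, and 3 and 10 had an unadjusted p under 0.05, all lower (6.23% of all genes). In 11 of the 28 fatty acid genes and 3 of the 33 oxidative phosphorylation genes the chosen libraries lay below all sham libraries, set against 1.85% of all genes. Other lists of metabolism were less uniform, with 19 of 21 genes of the tricarboxylic acid cycle lower (median -0.11), 9 higher and 10 lower of glucose transport and glycolysis (median -0.02), and 5 higher and 10 lower of the PGC-1, PPAR and ERR regulators (median -0.08). None of these was called by edgeR, DESeq2 or limma-voom, and 0, 2 and 2 had an unadjusted p under 0.05, set against 11.7% of all genes. Cd36, the fatty acid transporter, had 2251, 2207, 2284, 2273 and 2121 CPM in the chosen libraries, against 2623, 2656, 2727, 2725 and 2474 CPM in sham (log2 fold change -0.25, SE 0.09, adjusted p = 0.301). PDE9A inhibitor library 6 was the lowest of all 10 for this gene. Cox7b, a subunit of cytochrome c oxidase, had 448, 465, 564, 553 and 603 CPM, against 593 to 702 CPM in sham. Of the 33 oxidative phosphorylation genes 32, 24, 14, 23 and 3 lay below every sham library in the chosen libraries, and of the 28 fatty acid genes 20, 21, 20, 14 and 13 did, against 22.5, 23.5, 22.2, 20.3 and 17.7% of all genes.

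PDE9A inhibitor library 6 was nearest to sham for matrix (1 of 44 genes above all sham libraries) and for oxidative phosphorylation (3 of 33 below), yet 12 of the 20 endoplasmic reticulum genes and 13 of the 28 fatty acid genes were below every sham library there, and 8 of the 14 fetal and stretch genes were above. The other 4 chosen libraries had 10, 14, 14 and 13 of the 20 endoplasmic reticulum genes below every sham library and 10, 13, 12 and 7 of the 14 fetal and stretch genes above. Of the 17 called genes, that library was the chosen library nearest to sham in 11.

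Calcium handling genes mostly pointed downward. Of the 24 tested genes 20 were lower, with a median of -0.16 against -0.415 in untreated TAC, where 13 fell (13.0% of all genes did). None was called in the chosen libraries by edgeR, DESeq2 or limma-voom. An unadjusted p under 0.05 was found for 3, all lower, set against 6.23% of all genes. Atp2a2, the calcium pump of the sarcoplasmic reticulum, had 14560, 13580, 14120, 17500 and 19470 CPM in the chosen libraries, against 18310 to 21320 CPM in sham (log2 fold change -0.31, 95% interval -0.64 to 0.01). Slc8a1, the sodium-calcium exchanger, had 1122, 1275, 1212, 1246 and 1174 CPM, against 1297 to 1660 CPM in sham (log2 fold change -0.28, SE 0.10, adjusted p = 0.304), and did not overlap. Cardiomyocyte markers were lower in 11 of 12, with a median of -0.12 and summed levels of 157300 to 221700 CPM in the chosen and 190300 to 223700 CPM in the sham libraries; their part in these lists was not tested.

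The targets of the drugs were not called. Pde5a had 10.7 ± 1.12 CPM in the chosen and 10.5 ± 1.24 CPM in the sham libraries, with a 95% interval of the log2 fold change from -0.19 to 0.27. Pde9a had 2.45 ± 0.54 CPM in the chosen and 2.63 ± 0.50 CPM in the sham libraries, with an interval from -0.68 to 0.49. Npr1, the natriuretic peptide receptor that makes cyclic GMP, had 16.8 ± 1.33 CPM in the chosen and 18.2 ± 2.64 CPM in the sham libraries, and Prkg1, the kinase that cyclic GMP activates, 39.5 ± 4.44 CPM in the chosen and 33.3 ± 1.22 CPM in the sham libraries (SD, n = 5 each; log2 fold change 0.24, SE 0.07). Its adjusted p was 0.200. Corin, the protease that activates pro-atrial natriuretic peptide, had 255, 205, 209, 270 and 336 CPM against 315 to 357 CPM in sham (log2 fold change -0.41, SE 0.11, adjusted p = 0.163). Of 25 tested genes of the cyclic GMP pathway none was called by edgeR or limma-voom. DESeq2 called 2, both lower (0.573% of all genes), and 4 had an unadjusted p under 0.05 (11.7% of all genes).

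Interferon-stimulated genes were higher in 19 of 20 tested, with a median log2 fold change of 0.26 against 0.35 in untreated TAC. None was called in the chosen libraries by any of the 3 tools. An unadjusted p under 0.05 was found for 2, both higher, set against 5.45% of all genes. Oasl2 had 11.9, 10.6, 10.3, 8.84 and 6.53 CPM against 5.92 to 7.39 CPM in sham. Of 13 complement genes 9 were higher (median 0.43) and none was called by edgeR or limma-voom. DESeq2 called 1 and 3 had an unadjusted p under 0.05, all higher, set against 0.559% and 5.45% of all genes. Igfbp5, which binds insulin-like growth factors, had 110, 78.3, 96.9, 118 and 123 CPM against 44.9 to 74.6 CPM in sham (log2 fold change 0.79, SE 0.17, adjusted p = 0.079), and unlike the matrix genes it was highest in PDE9A inhibitor library 6. Pfkfb1, a regulator of glycolysis, had 4.29, 6.36, 3.85, 6.37 and 6.87 CPM against 9.32 to 15.5 CPM in sham (log2 fold change -1.17, SE 0.34, adjusted p = 0.196). Agt, angiotensinogen, had 1.76, 3.39, 3.08, 3.27 and 2.93 CPM against 3.44 to 5.42 CPM in sham (log2 fold change -0.68, SE 0.22, adjusted p = 0.231).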

How the data were processed

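Total RNA of left ventricular myocardium was sequenced as stranded libraries, 1 per mouse. The deposited table holds estimated counts per gene made by the authors; the submitters' processing notes name RSEM 1.3.0, HISAT2 2.0.5, CASAVA 1.8.4, the build mm10 and DESeq2 1.18.1. The table has 24054 rows, 27 with symbols turned into dates; 19% of values have decimals and were rounded.

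Samples were grouped by the labels, and the treated TAC libraries were then divided at 2000 CPM of Myh7. Genes were filtered with filterByExpr and fitted with edgeR 4.0.16 (R 4.3.3, TMM, quasi-likelihood, Benjamini-Hochberg) over 21 libraries with 4 group means (chosen, other treated, untreated TAC and sham). Comparisons by label used the 4 labelled groups, both inhibitors weighted equally. Intervals use 17 residual degrees of freedom. Adjusted p-values come from edgeR unless limma-voom 3.58.1 or DESeq2 1.42.0 is named. The procedure was tested on simulated counts with the same spread for every gene. They held no selection on Myh7 and no ear tag series, so the simulation does not cover these features. Genes named were called genes whose groups did not overlap and that reached 1 CPM (by size of change, up to 10 per direction), up to 3 called members of each list or its member with the lowest p, a fixed set of myosin, natriuretic peptide, matrix and drug target genes, and called genes that changed at least as much as in untreated TAC. The members and lists were chosen with earlier results of these data known. Tmem246 and the uncalled chaperone list members fall outside this rule and were named after their values were seen. Alternatives covered scaling, filtering, tools, ear tag series, replicate block, inhibitor and each library left out. 1 gene named by the rule is not reported here.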

Additional observations from a re-analysis of the deposited data

Results flagged for a closer look

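Of 105 groups of 5 libraries checked for a library far from the others, 5 held one, and about 5.2 would by chance. Nox4 was at 22.4 CPM in PDE5A inhibitor library 1, against 2.89 to 8.51 CPM in the other chosen libraries. Sfrp2 was at 24.4 CPM in the same library, against 3.98 to 9.27 CPM in the others. Agt was at 1.76 CPM there, against 2.93 to 3.39 CPM. Aurka, a mitotic kinase, was at 1.46 CPM in PDE5A inhibitor library 2, against 0.916 to 1.07 CPM in the other chosen libraries. Fosb, an immediate early gene, was at 21.8 CPM in sham library 2, against 0.0756 to 0.426 CPM in the other sham libraries.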

How the results depend on the processing

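The 17 calls became 14 with upper-quartile scaling (9 higher, 5 lower), 14 without a filter, 1 with limma-voom, 160 with DESeq2, 65 with only the compared libraries, 40 with the library just above the threshold added, 10 with only PDE5A inhibitor and 1 with only PDE9A inhibitor libraries, and 0 with a term for ear tag series (676 at an unadjusted p under 0.05). Of the 17, 9 were among the 65 and all 17 among the 40. Hspa5, Hsp90b1 and Manf were not called with only the compared libraries. They were not called with only PDE5A inhibitor or only PDE9A inhibitor libraries either. Leaving out 1 library gave 1 to 35 calls. Replicate numbers did not pair the samples (chosen and sham libraries of the same number correlated at -0.221 to 0.0873 over 4 pairs); the replicate block gave 120 calls. The 2392 calls of all treated TAC became 229 with the ear tag term and 760 to 3225 with 1 library left out, and split 1297 higher to 1027 lower with upper-quartile scaling; the 3558 of untreated TAC became 1781 to 4440 with 1 library left out.

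Of the named genes none of the 17 called changed sign. With the ear tag term Bckdhb was at 0.0351, Col1a1 at -0.544 and Myh6 at 0.0242 (log2), Pde9a was at 0.0592 with the replicate block, and Pde5a at -0.00668 with only PDE9A inhibitor libraries. With 1 library left out Fosb ranged from -4.21 to 0.281, Pde5a from -0.0262 to 0.0991 and Pde9a from -0.224 to 0.0163. The cause was not tested. With 5 libraries a group, and the treated ones chosen by their own Myh7, a gene that was not called is not shown to be unchanged.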
